A study of Homo sapiens with 5 samples.

Results

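SW480 colorectal cancer cells were split by how much mRNA they held for 4 inhibitors that Wnt signaling switches on against itself, APCDD1, NOTUM, NKD1 and AXIN2, and the cells at the low end were compared with those at the high end at 1 day post injection (dpi). SW480 is a human line from a primary colon adenocarcinoma, here transfected with a GFP lentivirus, grown as xenografts in zebrafish larvae. Tumors were pooled, dissociated and sorted as single cells into 384-well plates for SORT-seq, a method that counts polyadenylated transcripts by unique molecular identifiers (UMIs). Libraries 6, 7 and 8 (1 plate each) were taken at 1 dpi, and libraries 10 and 11 at 4 dpi serve only for comparison. The sources do not say whether the plates of 1 time point came from separate pools of larvae. The p-values rest on how the difference between groups varied from plate to plate, and this spread may be technical.

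Cells were wells with more than 2000 detected genes and less than 25% of their UMIs on mitochondrially encoded genes. These were 227, 142 and 162 cells in libraries 6, 7 and 8, or 531 of the 822 cells of the series. The groups were chosen by a measured value. The score of a cell was its summed UMIs of the 4 genes per 10000 UMIs. Within each plate, the lowest 20% of cells formed the low group (46, 29 and 33 cells, 108 in all) and the top 33.3% the high group (76, 48 and 54 cells, 178 in all), which left 245 middle cells. In library 6 the last low cell scored 2.73 and the first middle cell 2.91, and the last middle and first high cells 11.5 and 11.6. The edges were 2.93 and 3.01, and 9.08 and 9.21, in library 7, and 2.84 and 2.87, and 10.83 and 10.83, in library 8. Of the low cells, 12 had none of the 4 transcripts.

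Wnt ligands bind Frizzled receptors and keep β-catenin from being degraded by the complex of APC and AXIN proteins, after which β-catenin drives transcription with TCF and LEF factors. Among the genes it switches on are brakes on the same pathway: AXIN2 rebuilds the degradation complex, NKD1 binds Dishevelled, NOTUM strips a lipid from the Wnt ligand and APCDD1 acts at the membrane. SW480 cells carry a truncated APC, so their β-catenin is stabilized without a ligand. In the normal colon the same signaling marks the stem cells at the crypt base, where Notch signaling, through effectors of the HES and HEY families, also operates.

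The values that chose the groups are given as a description. UMIs were summed over the cells of each plate and group and expressed as CPM, each gene's count in proportion to the total of its sum, scaled by TMM, a normalization that sets the bulk of genes equal between sums. NOTUM was at 69.9, 64.2 and 55.9 CPM in the low cells of libraries 6, 7 and 8 and at 568, 472 and 502 CPM in the high cells. NKD1 was at 53.7, 58.7 and 54.3 against 475, 415 and 498 CPM. APCDD1 was the least even of the 4 in high cells, with 383, 201 and 370 CPM against 10.7, 25.01 and 18.1 in low cells, and AXIN2 had 280, 283 and 267 against 32.2, 45.7 and 39.3. Middle cells lay between the other groups for each gene in each plate.

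**Figure D1:**
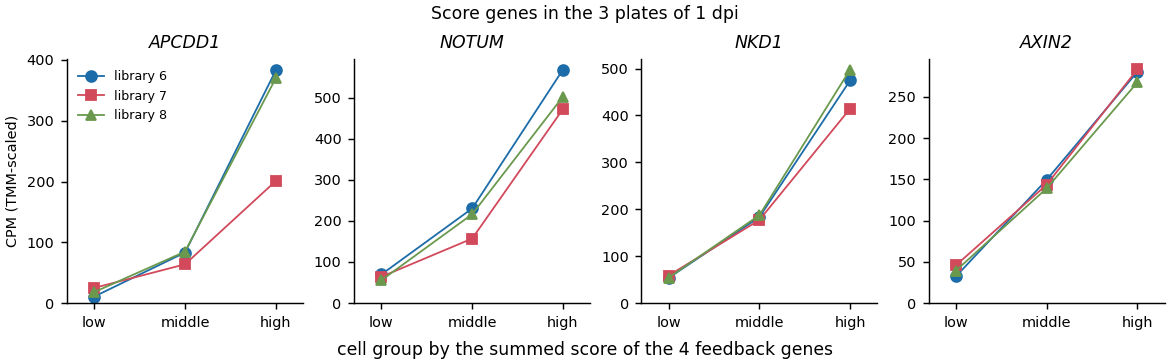
TMM-scaled CPM (vertical axes, from 0) of the 4 score genes in the low, middle and high cells of each plate of 1 dpi (points joined by plate, 1 sum of cells per point). The order low, middle, high is fixed by the way cells were chosen, and APCDD1 in the high cells of library 7 (201 CPM) is below the other 2 plates.

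To check the score against a measure it did not use, each gene was left out in turn, cells were ranked by the other 3, and the left-out gene was tested between the new groups of 108 and 178 cells. APCDD1 had 20.9, 34.5 and 33.4 CPM in the low cells of the 3 plates and 301, 176 and 343 CPM in the high cells. NOTUM had 94.0, 109 and 116 against 495, 354 and 421 CPM. NKD1 had 94.2, 96.0 and 79.9 against 432, 376 and 459 CPM, and AXIN2 69.1, 86.3 and 65.5 against 243, 227 and 234 CPM. No plate of low cells reached any plate of high cells for any of the 4. With cells grouped by the full score, the plates of the groups did not overlap, in either direction, for 35.3% of all genes tested. The log2 difference, low minus high, was -3.18 for APCDD1 (standard error, SE, 0.21, adjusted p = 1.36e-10), -1.99 for NOTUM (SE 0.15, adjusted p = 1.61e-09), -2.21 for NKD1 (SE 0.16, adjusted p = 4.49e-11) and -1.68 for AXIN2 (SE 0.16, adjusted p = 1.21e-09). These p-values are from edgeR's quasi-likelihood test with plate as a block, adjusted by Benjamini-Hochberg over all genes, of which 6.75% to 8.14% were called lower in these 4 fits. Each of the 4 transcripts thus differed in the direction of the score made from the other 3.

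Depth, content and marker levels differed between the groups. Low cells had a median of 27612, 33158 and 18233 UMIs in libraries 6, 7 and 8, and high cells 33381, 32376 and 33448. Median detected genes were 5188, 5750 and 4561 against 6627, 6556 and 6471. Of all UMIs, 16.1%, 16.0% and 15.6% were on cytosolic ribosomal protein genes in low cells and 11.6%, 12.3% and 12.7% in high cells, and 14.3%, 13.1% and 11.97% against 10.6%, 10.4% and 11.1% were on mitochondrially encoded genes. The median mitochondrial share per cell was 14.5%, 12.9% and 10.4% in low cells against 10.5%, 10.8% and 11.3% in high cells, so that in library 8 it was below that of the high cells. Their part in the differences below was tested only by other groupings and by thinning. Cells were ranked separately among deeper and shallower cells or among cells of higher and lower mitochondrial share. They were also scored per UMI off mitochondrial and ribosomal rows. Thinning each cell to 5000 UMIs kept the groups chosen from full counts and left out cells with fewer UMIs. It therefore could not test the part of depth in the choice of groups. EPCAM and KRT8, markers of the epithelial line, had 3624 and 6308 UMIs in low cells, while CDX1 was at 0 in both groups. Of 19 blood cell markers, leukocyte genes with the hemoglobin genes HBA1 and HBB, 6 were at 0 in both groups, CD3D, MPO and TYROBP among them. The list summed to between 39.3 and 51.1 CPM in low cells and between 30.2 and 36.9 CPM in high cells. Of 16 fibroblast, endothelial and neural markers, 5 were at 0, COL1A2 and CDH5 among them, with sums of 27.2 to 43.9 and 23.3 to 30.5 CPM. Reads were mapped to the human transcriptome, so these counts do not show whether zebrafish host cells were present. ITGAM (0.93, adjusted p = 0.128) and LUM (0.34, adjusted p = 0.426), the members of these 2 lists with enough counts for a test, were not called. Of 10 tested epithelial markers 2 were higher and 2 lower in low cells. Each file lists the same 384 wells, so a shared well number does not mark a shared cell, and no doublet caller was run on these sorted wells.

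Outside the score, 11 of 19 tested Wnt targets and 8 of 11 Notch effectors and targets were lower in the low cells of 1 dpi. SOX9 is in both counts. Of 19 TGF-β and BMP response genes 9 were lower. Urokinase and its receptor, 16 of 31 hypoxia and glycolysis genes and 74 of 76 ribosomal protein genes were higher. So were 24 of 28 genes of a list that joins ATF4 amino acid response genes with the unfolded protein response of the endoplasmic reticulum (ER). Of 10011 genes tested, 1132 (11.3%) were higher and 736 (7.35%) lower in low cells at an adjusted p under 0.05. Either way 18.7% were called, 48.3% lay above 0, and the groups did not overlap between plates for 35.3% of all genes. Without TMM the median of all genes moved from -0.02 to -0.31 on the log2 scale, and 558 genes (5.57%) were then called higher and 2359 (23.6%) lower, so that 19.1% rather than 60.6% of calls were higher. The counts and medians of lists without TMM, given below, are to be read beside this shift of all genes. DESeq2 called 638 higher and 228 lower. Without library 6 the counts were 598 and 297. Middle cells had a mean level between the other groups for 94.0% of called genes, against 57.1% of all genes tested.

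Most of the tested Wnt targets were lower where the score was low. The promoter of SP5, a transcription factor gene switched on directly by β-catenin, is shown for the letters CTTTGAT or CTTTGAA, to which TCF and LEF factors bind. In the 250 bases before its start it held 3 matches, in capitals, 1 forward and 2 as the reverse complement TTCAAAG, at 84 to 148 bases from the start. The stretch is chr2:170715169-170715279 of GRCh38.p14, plus strand, from RefSeq.
SP5: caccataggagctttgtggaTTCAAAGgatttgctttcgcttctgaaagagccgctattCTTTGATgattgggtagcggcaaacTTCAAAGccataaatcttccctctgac
A match on either strand was found in 6.03% of all 27305 promoters and in 4 of the 11 promoters at hand for the 17 Wnt feedback and target genes called lower (DKK1, SP5, CDX2 and FGF18). A match is a description of these letters and not a binding site.

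SP5 (chromosome 2) was at 34.0, 38.1 and 45.3 CPM in low cells and at 229, 181 and 189 CPM in high cells (log2 difference -2.37, SE 0.17, adjusted p = 2.63e-07). ASCL2 (chromosome 11), the transcription factor that maintains intestinal stem cells, had 10.7, 13.05 and 31.7 against 101, 93.4 and 122 CPM (-2.61, SE 0.23, adjusted p = 1.64e-06). The low cells of library 8 held the most ASCL2 of the low groups, and these were still well below the high cells of their own plate. PROX1 (chromosome 1), a homeobox factor induced by Wnt in colon tumors, had 22.4, 40.2 and 42.3 against 178, 148 and 120 CPM (-2.13, SE 0.22, adjusted p = 5.72e-06).

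Of 26 Wnt target and crypt stem genes, 19 passed the filter on low counts, of which 11 were lower, 2 higher and 6 not called, with a median of -0.82 against -0.02 over all genes. Without TMM 13 were lower and none higher. LGR5 (chromosome 12), the receptor that marks crypt stem cells, was scarce, at 5.37, 3.26 and 3.02 CPM in low and 16.3, 15.7 and 15.3 in high cells (-1.95, SE 0.43, adjusted p = 0.00452, not called by DESeq2). The other members called lower were CDX2 (-1.91), a colon identity factor, SOX4 (-1.73), EPHB3 (-1.63), an ephrin receptor of the crypt base, SOX9 (-1.52), the ligand gene FGF18 (-1.25), LEF1 (-0.82) and the cyclin gene CCND1 (-0.67). CD44 (chromosome 11, 0.80, adjusted p = 0.024) and ETS2 (chromosome 21, 0.95, adjusted p = 0.01) went the other way. The calls of CD44, ETS2 and LEF1 were lost without library 6 (adjusted p = 0.12, 0.0678 and 0.132), and that of CD44 also without library 7 (adjusted p = 0.0741).

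Most of the other tested genes of the Wnt feedback list were lower as well. Of 14 genes of the Wnt feedback list that the score did not use, 7 were tested and 6 were lower, with a median of -1.23. ZNRF3 (chromosome 22), a ubiquitin ligase that removes Frizzled, had 26.9, 43.5 and 30.2 CPM in low cells and 124, 116 and 122 in high cells (-1.85, SE 0.19, adjusted p = 5.2e-06). Its paralog RNF43 differed less, with 6.27, 17.4 and 16.6 against 24.98, 28.5 and 29.5 CPM (-1.11, adjusted p = 0.0192, and 0.231 without library 6). TNFRSF19 (-2.80), a receptor induced by Wnt, NKD2 (-1.59), BAMBI (-1.23) and DKK1 (-1.19), a secreted inhibitor of the LRP co-receptors, were the others.

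The calls among ligands, receptors and intracellular components depended on the scaling, none being higher with or without TMM. So did those of all genes, of which 7.35% were called lower with TMM and 23.6% without. The median of all genes moved from -0.02 to -0.31. Of 33 Wnt ligand and receptor genes 11 were tested and 1 was lower with TMM (7 without TMM, 2 without library 6 and 3 of 12 without library 8). This was WNT10A, with 13.4, 10.9 and 9.06 CPM in low and 36.6, 42.5 and 41.9 in high cells (-1.80, SE 0.27, adjusted p = 2.34e-04). The median of those tested was -0.44 (-0.74 without TMM). Of 26 intracellular components 20 were tested and 5 were lower (9 without TMM): TCF7L2 (-0.99), the main TCF factor of the gut, BCL9 (-1.11) and PYGO2 (-0.75), both coactivators of β-catenin, CTNNB1 (-0.63), which encodes β-catenin, and APC (-0.55). CTNNB1 was at 167, 213 and 165 CPM in low cells and at 266, 294 and 284 CPM in high cells. The calls of PYGO2 were lost without any 1 of the plates, those of APC without library 6 or 8, and that of BCL9 without library 6. Without library 6 the list had 2 calls. The median of the list was -0.21 (-0.50 without TMM).

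**Figure D2:**
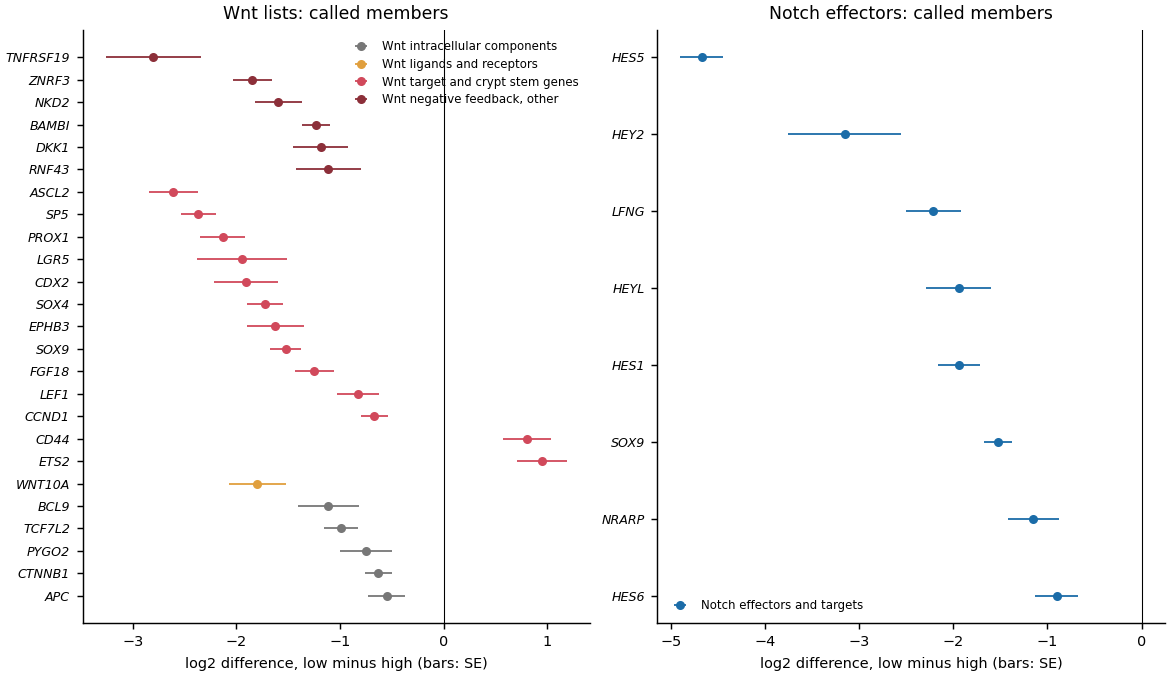
Log2 difference, low minus high (points, with bars of 1 SE), of the called members of 4 Wnt lists (left) and of the Notch effector list (right) at 1 dpi, fitted over 3 plates. HES5 (-4.67) lies farthest from 0, and CD44 (0.80) and ETS2 (0.95) are the members above 0.

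Notch effectors were mostly lower in low cells, and HES5 had the largest fall of all genes that were named by size. The promoters of HES1 and HES5 are shown because both genes moved and both hold the letters TGGGAA, bound by RBPJ, the DNA-binding partner of Notch, in capitals (TTCCCA on the reverse strand). The first stretch is chr3:194136044-194136103, plus strand, with matches at 70 and 84 bases before the start, and the second is chr1:2530318-2530507, minus strand, with matches at 80 and 224 bases (RefSeq, GRCh38.p14).
HES1: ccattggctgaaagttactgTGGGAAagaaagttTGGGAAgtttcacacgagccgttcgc
HES5: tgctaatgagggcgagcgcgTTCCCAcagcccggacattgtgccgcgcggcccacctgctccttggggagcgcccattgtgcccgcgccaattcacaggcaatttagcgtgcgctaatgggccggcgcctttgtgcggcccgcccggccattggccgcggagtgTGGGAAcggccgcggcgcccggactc
These 6 letters are common, in 21.1% of all promoters, and were in 4 of the 7 promoters at hand for the 8 called effectors (HES1, HES5, HEY2 and HEYL).

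HES5 (chromosome 1) was at 6.27, 9.79 and 7.55 CPM in low cells and at 242, 205 and 137 CPM in high cells, with middle cells at 63.0, 60.9 and 33.6 CPM. The log2 difference was -4.67 (SE 0.23, adjusted p = 3.75e-09), and it was -4.34 after thinning. Not all high cells held HES5. It was detected in 27 of 76, 19 of 48 and 22 of 54 high cells of libraries 6, 7 and 8. In low cells it was detected in 6 of 46, 7 of 29 and 1 of 33. HES1 (chromosome 3), another transcriptional repressor, was at 154, 222 and 288 CPM in low cells and 946, 1056 and 548 in high cells (-1.94, SE 0.22, adjusted p = 1.6e-05). HES1 was not ordered by score throughout, since the middle cells of libraries 7 and 8, with 1314 and 864 CPM, were above their high cells.

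The related repressors HEYL (-1.94, adjusted p = 8.18e-04) and HEY2 (-3.15, adjusted p = 0.00144) were also lower. HEY2 is a low count, with 4 UMIs in low cells and 95 in high cells. Of 18 effectors and targets 11 were tested, 8 were lower and none higher, with a median of -1.52. LFNG (-2.21), the glycosyltransferase that modifies Notch receptors, SOX9, NRARP (-1.15), a feedback inhibitor, and HES6 (-0.90) made up the 8. SOX9 is also counted among the Wnt targets. NRARP and HES6 were not called without library 6 (adjusted p = 0.14 and 0.196). The list of Notch receptors and ligands, which also holds the intracellular adaptor NUMBL, had a median of 0.01 over 11 tested genes (-0.28 without TMM). Of these 3 were lower and 1 higher, none of which were called without library 6. NOTCH1 was the lowest (-0.88, adjusted p = 0.00765, lost without library 6), and NUMBL the highest, not called (1.01, adjusted p = 0.0628).

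DLL4, TERT and CX3CL1, which the study discusses for these cells, had too few counts for a test, with 2, 3 and 6 UMIs in low cells and 26, 4 and 69 in high cells. TFF3, a trefoil peptide of secretory cells, was at 76.1, 112 and 142 CPM in low cells and 94.9, 66.0 and 86.2 in high cells, groups that overlapped (0.38, SE 0.19, adjusted p = 0.185). CXCL1, a neutrophil chemokine, varied more between plates than between groups, with 32.2, 6.52 and 52.8 against 18.3, 50.3 and 8.37 CPM (0.35, SE 0.56, adjusted p = 0.712).

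Among the genes chosen for the size of their difference, 12 in each direction, urokinase and its receptor were among the top 4 of those higher in low cells. PLAU (chromosome 10), which encodes urokinase, was at 33.1, 34.8 and 95.1 CPM in low cells and at 1.67, 0 and 1.97 CPM in high cells (5.23, SE 0.42, adjusted p = 5.84e-07). Its receptor PLAUR (chromosome 19) was at 494, 548 and 729 against 21.0, 76.6 and 43.8 CPM (3.77, SE 0.23, adjusted p = 5.14e-08). For both genes the lowest plate of low cells was above the highest plate of high cells, which the choice of these genes required.

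Others were FAM129A (3.91), AKAP12 (3.80), a scaffold of protein kinase A, NDRG1 (3.51), KRT16 (3.41), a keratin of stressed epithelia, EMP1 (3.20), LAMA2 (3.08), a laminin chain, PTGS1 (2.79), a cyclooxygenase, and LINC01564 (2.75). AKAP12 was at 214, 101 and 214 CPM in low and 16.0, 13.4 and 7.88 in high cells. EMP1, an epithelial membrane protein, was at 608, 294 and 362 against 37.3, 62.1 and 38.4 CPM. Both were several times higher in each plate, library 7 having the smallest low level in both.

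The 12 genes with the largest falls were HES5, EFNA4 (-3.59), an ephrin ligand, MYB (-3.54), HEY2, CYFIP2 (-3.00), PTCH1 (-2.91), LRRC45 (-2.83), MAST3 (-2.83), TNFRSF19, CHODL (-2.76), SOWAHA (-2.69) and KCNJ2 (-2.68), a potassium channel. PTCH1 (chromosome 9), receptor and target of Hedgehog signaling, was at 6.27, 5.44 and 4.53 CPM in low cells and at 46.6, 36.9 and 42.8 in high cells (adjusted p = 7.76e-06). MYB (chromosome 6), a transcription factor of progenitor cells, was at 0.896, 4.35 and 0 against 29.0, 16.8 and 20.2 CPM (adjusted p = 3.39e-04). Apart from HES5, PTCH1 and CHODL these were genes of low level, below 30 CPM in each high group. EFNA4 had 2 UMIs in low and 68 in high cells, a ratio per UMI sequenced of 16.4 with a 95% exact counting interval from 4.38 to 139, and CYFIP2 had 3 and 63, a ratio of 10.2 (3.32 to 50.6).

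**Figure D3:**
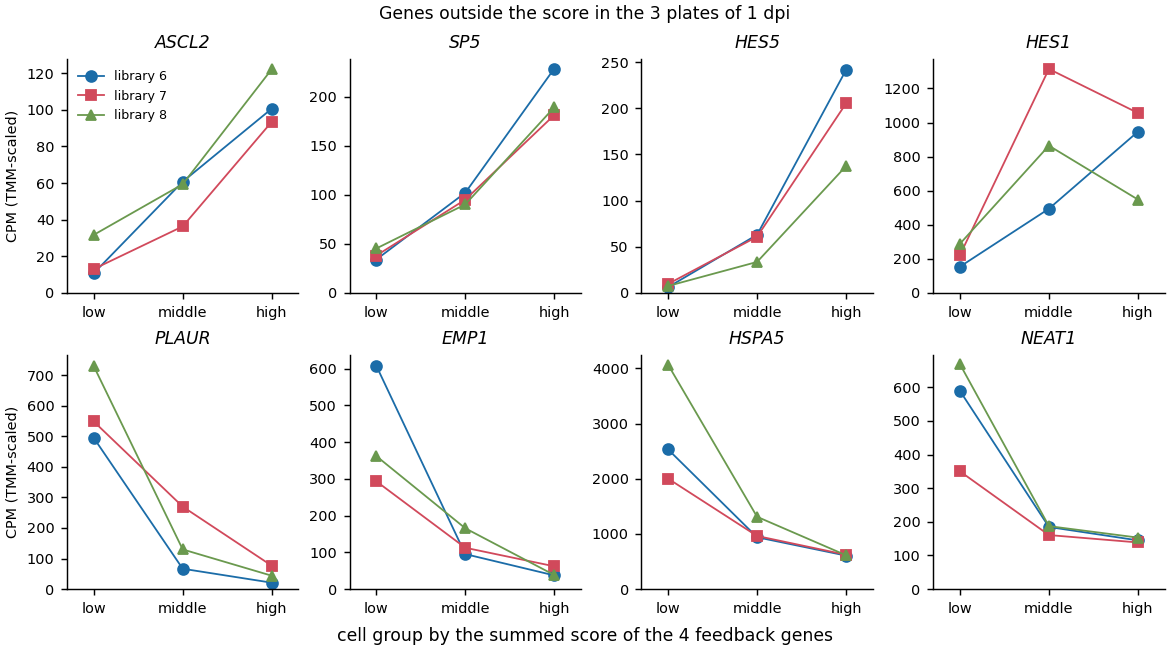
TMM-scaled CPM (vertical axes, from 0) of 8 genes that the score did not use, in the low, middle and high cells of each plate of 1 dpi (points joined by plate, 1 sum of cells per point). ASCL2, SP5 and HES5 climb with the score and PLAUR, EMP1, HSPA5 and NEAT1 fall in each plate, while HES1 is highest in the middle cells of libraries 7 and 8.

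Genes of the ATF4 and unfolded protein response list were mostly higher in low cells. The unfolded protein response restores folding capacity in the ER. HSPA5 encodes BiP, the main ER chaperone. Its promoter is shown with those of HSP90B1, XBP1 and CRELD2, since these held the ER stress response element (CCAAT, 9 bases of any kind and CCACG, in capitals, on either strand), which ATF6 and NF-Y bind. The stretches are chr9:125241371-125241429 (minus strand), chr12:103930196-103930359 (plus), chr22:28800583-28800641 (minus) and chr22:49918534-49918592 (plus) of GRCh38.p14, from RefSeq.
HSPA5: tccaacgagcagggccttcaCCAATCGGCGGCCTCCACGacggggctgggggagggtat
HSP90B1: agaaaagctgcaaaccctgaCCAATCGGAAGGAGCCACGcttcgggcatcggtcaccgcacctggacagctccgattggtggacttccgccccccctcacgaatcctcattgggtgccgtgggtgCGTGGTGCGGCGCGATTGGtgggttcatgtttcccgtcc
XBP1: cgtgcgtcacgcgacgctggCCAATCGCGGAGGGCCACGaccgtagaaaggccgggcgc
CRELD2: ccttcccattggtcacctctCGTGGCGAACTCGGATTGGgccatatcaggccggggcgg
The element was in 22 of 27305 promoters (0.0806%) and in these 4 of the 22 promoters at hand for the 24 members called higher.

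HSPA5 (chromosome 9) was at 2532, 2003 and 4067 CPM in low cells and 607, 623 and 614 in high cells (2.16, SE 0.16, adjusted p = 3.54e-07). The high groups were nearly equal and the low groups spread, with library 8 on top. HSP90B1 (1.81), the other large ER chaperone, XBP1 (1.32), a transcription factor of the response, and CRELD2 (1.18), named for their promoters after their values were seen, were each called. Of 29 genes of the ATF4 and unfolded protein response list 28 were tested, 24 were higher and 1 lower, SLC7A5 (-0.48, adjusted p = 0.0414, lost without library 6), an amino acid transporter, with a median of 1.14. Thinned to 5000 UMIs per cell, 19 of 25 were higher with a median of 1.04, and ranked separately among deeper and shallower cells, 24 of 28.

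Other stress lists had smaller medians. Hypoxia and glycolysis genes were higher for 16 of 31 tested and lower for 1 (11 and 2 without TMM), with a median of 0.53, and 9 were higher without library 6. Their highest was NDRG1, a gene induced by low oxygen and other stresses, at 91.4, 64.2 and 163 against 8.99, 10.6 and 6.89 CPM. PFKFB4 was the lowest, not called (-0.63, adjusted p = 0.365). Of 20 NRF2, iron and metallothionein genes 8 were higher and 3 lower (1 without library 6), with a median of 0.30 that came to 0.0085 without TMM, from GCLC (1.14, adjusted p = 9.62e-04), which starts glutathione synthesis, to the zinc exporter SLC30A1 (-0.95, adjusted p = 0.0132, lost without library 6). Of 18 heat shock genes 6 were higher (2 without library 6), led by HSPA1B (1.74, adjusted p = 0.0033, lost without library 8), and HSPA4L was lowest, not called (-0.55, adjusted p = 0.165). HSPA1A and HSPA1B are near-identical copies, so the split of reads between them is uncertain. The heat shock median of 0.28 turned to -0.01 without TMM, with 3 higher and 3 lower.

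Sterol synthesis genes, called higher for 9 of 27, had a median of 0.28 that also turned to -0.01 without TMM, with 5 higher and 3 lower. MSMO1 (1.99, adjusted p = 5.84e-07) was at 133, 134 and 131 against 38.6, 28.5 and 33.0 CPM, and LSS was lowest, not called (-0.61, adjusted p = 0.183). Of 25 p53 targets 6 were higher (4 without library 6 or 8) and 1 lower (none without library 7, 2 without library 8), with a median of 0.09 (-0.20 without TMM, with 4 higher and 4 lower). CDKN1A (chromosome 6), the cell cycle inhibitor p21, was at 60.9, 84.8 and 103 CPM in low cells and 23.7, 19.6 and 8.86 in high cells (2.20, SE 0.28, adjusted p = 5.56e-05). BTG2 was at the other end, not called (-0.66, adjusted p = 0.293).

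Ribosomal protein genes, which encode the subunits of the cytosolic ribosome, were called higher for 74 of the 76 tested and lower for none. Their median was 0.66 (0.37 without TMM, with 71 called higher), and 72 of 75 were higher after thinning. They ran from RPS9 (0.37, adjusted p = 0.0361), whose call was lost without any 1 plate, to RPL36A (0.92, adjusted p = 9.72e-05). Processed pseudogenes make counts of single members uncertain. All 15 mitochondrially encoded genes were higher, with a median of 0.59 (0.30 without TMM, with 11 called). Thinned, 7 of 14 were called, and without library 7, 4 of 15. The order of the plates in their medians was library 6 (0.80), library 7 (0.54) and library 8 (0.32). MT-ND6 (0.90, adjusted p = 0.044) and MT-CO1 (0.41, adjusted p = 0.0362) were the ends of the list, both lost without library 6, and MT-CO1 also without library 7. With the score taken per UMI off mitochondrial and ribosomal rows, 74 of 76 and 14 of 15 were still called, with medians of 0.56 and 0.44.

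Nuclear oxidative phosphorylation subunits were higher for 14 of 74 (3 without library 6), with a median of 0.26 that turned to -0.03 without TMM. The calls turned with it, from 14 higher and none lower to 1 higher and 6 lower. They ran from NDUFA1 (0.62, adjusted p = 0.00229) to SDHA, not called (-0.49, adjusted p = 0.117). Of 34 ribosome biogenesis genes 3 were higher and 2 lower (1 and 0 without library 6, 5 and 0 without library 7, 2 and 3 without library 8, and 1 and 7 without TMM), between DDX21 (0.60, adjusted p = 0.00181) and POLR1C (-0.66, adjusted p = 0.0348, lost without library 6 or 7). NEAT1 (chromosome 11), the RNA scaffold of nuclear paraspeckles, was at 589, 350 and 669 CPM in low and 145, 139 and 153 in high cells (1.85, SE 0.15, adjusted p = 5.84e-07). It led 19 long non-coding RNAs, of which 9 were higher (5 without library 6 and 5 without TMM) and 1 lower. The lower one, CCAT1 (-2.57, adjusted p = 0.00129), is a transcript of colon tumors and had 3.58, 2.17 and 1.51 against 17.0, 13.4 and 16.7 CPM.

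Responses to TGF-β and BMP, signals that restrain stem cells in the gut, were lower for 9 of 19 and higher for 1, with a median of -0.47. ID1 (chromosome 20), a direct BMP target that inhibits basic helix-loop-helix factors, was at 90.5, 59.8 and 99.6 CPM in low cells and 544, 441 and 320 in high cells (-2.39, SE 0.18, adjusted p = 4.42e-07). YAP and TEAD targets were lower for 6 of 11 and higher for 2, but higher for 1 and lower for 2 of 12 without library 6. PTPN14 (-1.73, adjusted p = 2.96e-06), which binds YAP, and FOSL1 (1.19, adjusted p = 2.07e-05), an AP-1 subunit, were the ends.

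The calls of proliferation genes depended on the processing. Of all genes, 7.35% were called lower with TMM and 23.6% without, and the median of all genes moved from -0.02 to -0.31. Of 39 S phase genes 5 were lower (2 without library 6) and none higher, with a median of -0.29. Without TMM 20 were lower, with the bottom 33.3% as low cells 2 were lower with a median of -0.01, and with cells ranked separately by cell cycle share 2 were higher and 2 lower with a median of 0.07. The list ran from UHRF1 (-1.37, adjusted p = 0.0106, lost without library 6) to BRIP1, not called (0.29, adjusted p = 0.605, and -0.01 on the log2 scale without TMM). Of 49 G2 and mitosis genes 8 were lower (2 without library 6, 13 without library 8) and 1 higher, CKS1B (0.73, adjusted p = 0.00277, lost without library 6), with a median of -0.35. Without TMM 18 were lower, with the bottom 33.3% as low cells 3 of 50 were higher and 1 lower with a median of -0.06, and with cells ranked separately by cell cycle share 6 of 48 were higher and none lower with a median of 0.17. AURKA, a mitotic kinase, was at 11.6, 25.01 and 9.06 against 69.0, 29.1 and 41.9 CPM (-1.58, adjusted p = 0.00405, lost without library 6). The plate medians of this list were -0.63 and -0.41 in libraries 6 and 7 but 0.13 in library 8. Of 18 G1 regulators 2 were higher (1 without library 7 or 8) and 3 lower (1 and 6 without TMM), with CDKN2C (-1.72, adjusted p = 0.00111) at the bottom.

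Differentiation and inflammatory lists were mixed. Of 7 tested secretory genes 3 were higher and none lower, with TFF1 (1.92, adjusted p = 0.00333, lost without library 6) on top at 16.1, 16.3 and 21.1 against 2.67, 6.71 and 5.42 CPM, and KLK6 at the bottom, not called (0.11, adjusted p = 0.614, and -0.18 without TMM). Of 6 absorptive genes 1 was lower with TMM, VIL1 (-0.86, adjusted p = 0.0227, lost without library 6 or 8), and 4 without TMM, and MUC13 was highest, not called (0.55, adjusted p = 0.122). Of 22 mesenchymal and epithelial genes 10 were higher and none lower (7 and 1 without TMM). They included VIM (1.82, adjusted p = 0.00242, lost without library 6), the mesenchymal filament, and CDH1 (1.56, adjusted p = 1.75e-05), which encodes the epithelial cadherin and was at 105, 108 and 106 against 35.0, 47.0 and 27.6 CPM. CLDN3 was lowest, not called (-0.61, adjusted p = 0.127).

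Of 34 immediate early genes 6 were higher and 7 lower (18 of 37 without library 8, 4 without library 6). Without TMM 18 of 34 were lower, and 15 of 35 with cells ranked separately by depth. The list had FOSL1 on top and NR4A1 (-1.73, adjusted p = 9.41e-04) at the bottom. Of 20 chemokine and NF-κB genes 2 were higher (6 without library 7) and 5 lower (3 without library 6), and without TMM 1 was higher and 8 were lower, with the median turning from 0.21 to -0.08. CXCL2 (1.63, adjusted p = 0.0453) was at 16.1, 5.44 and 58.9 against 5.00, 11.7 and 5.42 CPM, so that the groups overlapped, and without library 8 it was not called (0.51, adjusted p = 0.551), nor without library 6 (adjusted p = 0.0945). REL, an NF-κB subunit, was lowest (-1.19, adjusted p = 2.58e-04). Of 14 genes of MHC class I presentation 6 were higher (3 without TMM) and none lower, from HLA-E (1.05, adjusted p = 7.12e-04) to ERAP2, not called (-0.40, adjusted p = 0.553), with a median of 0.37, although reads of HLA paralogs may be shared. Of 17 interferon-stimulated genes 2 were higher and none lower, with a median of 0.12 (-0.17 without TMM, with 2 higher and 3 lower), ISG15 (1.26, adjusted p = 0.00403) among them, and OAS3 was lowest, not called (-0.81, adjusted p = 0.26). Of 22 death genes 3 were higher (none without library 6) and 2 lower (1 and 4 without TMM), with BIRC3, an inhibitor of apoptosis, at the bottom (-0.86, adjusted p = 7.74e-04).

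The same rule at 4 dpi gave 59 low and 98 high cells on 2 plates. In libraries 10 and 11 the median mitochondrial share was 5.04% and 7.06% in low cells against 13.0% and 14.5% in high cells. Median UMIs were 31320 and 15476 against 22320 and 19502. Cells were ranked within each plate, so the groups of the 2 times did not have the same scores. High cells began at 19.7 and 16.9 in libraries 10 and 11, against 11.6, 9.21 and 10.83 in libraries 6, 7 and 8. Low cells ended at 3.36 and 3.68, against 2.73, 2.93 and 2.84. The part of this in the differences between times was not tested. There 2310 of 9556 genes (24.2%) were higher and 2383 (24.9%) lower in low cells. Of the 1074 genes higher at 1 dpi that could be tested at 4 dpi, 39.3% were higher and 23.8% lower at 4 dpi, and of 701 that were lower at 1 dpi, 38.8% were lower and 24.5% higher. The difference between the time points was itself tested as an interaction, 4 dpi minus 1 dpi, in 10497 genes, of which 1744 (16.6%) were above 0 and 1764 (16.8%) below 0. Called either way were 33.4%, and without TMM the counts were 3193 and 865, so that 78.7% rather than 49.7% of calls were above 0. At 4 dpi alone the share of calls higher in low cells was 49.2%, and 63.0% without TMM.

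ASCL2 and PROX1 were lower in low cells at both times, with log2 differences of -3.24 and -2.51 at 4 dpi, and their interactions were not called (-0.61, adjusted p = 0.251, and -0.36, adjusted p = 0.416). MYB was at -3.90 at 4 dpi. SOX9, at -1.52 at 1 dpi, was at -0.21 at 4 dpi (interaction 1.33, SE 0.24, adjusted p = 1.25e-04). NKD2 (interaction 1.77, adjusted p = 6.5e-04), CCND1 (1.01, adjusted p = 5.47e-04) and EPHB3 (1.53, adjusted p = 0.0149, lost without library 6, 10 or 11) likewise had differences near or above 0 at 4 dpi, at 0.16, 0.32 and -0.12. CTNNB1 went further down, to -1.52 (interaction -0.87, SE 0.21, adjusted p = 0.00255). This call was lost without library 11, without TMM and after thinning.

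HES1 turned from lower to higher in low cells. At 4 dpi it was at 202 and 131 CPM in the low cells of libraries 10 and 11 and at 74.6 and 39.6 CPM in the high cells (log2 difference 1.55, interaction 3.50, SE 0.35, adjusted p = 4.27e-08). HES5 was nearly absent by then, at 1.12 and 0 CPM in low and 2.91 and 7.36 in high cells, and its interaction was not called (1.83, SE 1.88, adjusted p = 0.486). HES6 moved the other way, from -0.90 to -2.30 (interaction -1.38, adjusted p = 0.00163). The call of HES6 was lost with cells ranked separately by mitochondrial share. As a list the Notch effectors had a median of -1.52 over 11 tested genes at 1 dpi and -0.21 over 11 at 4 dpi. These were not the same genes, since HES5, HEY2 and HEYL had too few counts for the test at 4 dpi alone. Interactions were called for 9 of 15 effectors, against 33.4% of all genes.

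**Figure D4:**
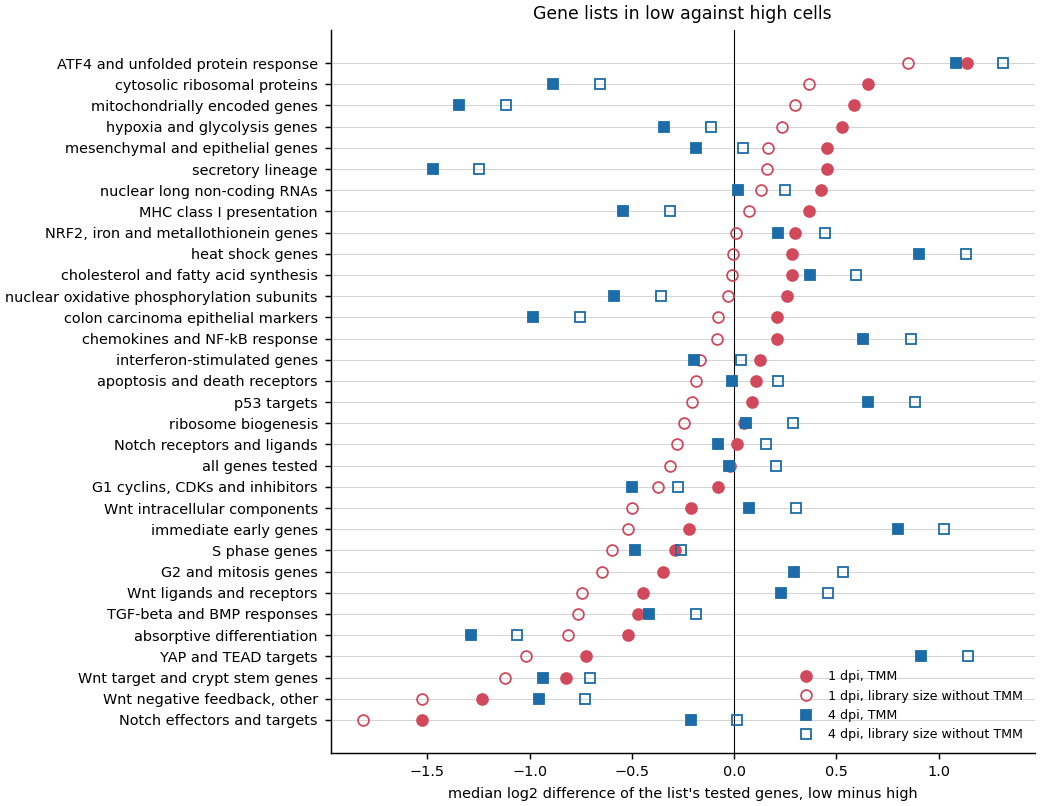
Median log2 difference, low minus high, of the tested genes of each list with 6 or more (horizontal axis), at 1 dpi (red circles) and 4 dpi (blue squares), with TMM (filled) and without (open). The ATF4 and unfolded protein response list lies above 0.8 under all 4, and both the feedback and target lists of Wnt lie below -0.7. Ribosomal and mitochondrially encoded genes change side between times. The genes of a list that were tested can differ between the times.

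The 5 genes with the smallest interaction p were each lower in low cells at 1 dpi and higher at 4 dpi. NR1D1, a repressor of the circadian clock, was at 98.5, 121 and 118 CPM in low and 315, 276 and 316 in high cells at 1 dpi, and at 580 and 607 against 51.3 and 45.1 CPM at 4 dpi (interaction 5.05, SE 0.24, adjusted p = 8.75e-14). BHLHE41, another clock repressor, was at 55.5, 58.7 and 57.4 against 115, 125 and 96.5 CPM, and then at 355 and 476 against 24.2 and 14.7 (5.38, SE 0.29, adjusted p = 1.29e-12). KLF10 (3.98, adjusted p = 7.05e-13), a TGF-β-induced factor, TXNIP (2.83, adjusted p = 1.19e-10), an inhibitor of thioredoxin, and ID2 (3.19, adjusted p = 1.47e-10) turned over in the same way. The ATF4 and unfolded protein response list kept a positive median (1.09 at 4 dpi, 20 of 28 higher). The ribosomal proteins (-0.88, 73 of 75 lower) and mitochondrially encoded genes (-1.35, 14 of 15 lower) reversed. Their share of all UMIs at 4 dpi was 9.57% and 9.97% in low and 15.7% and 15.2% in high cells for the former, and 7.16% and 7.16% against 12.3% and 14.8% for the latter.

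**Figure D5:**
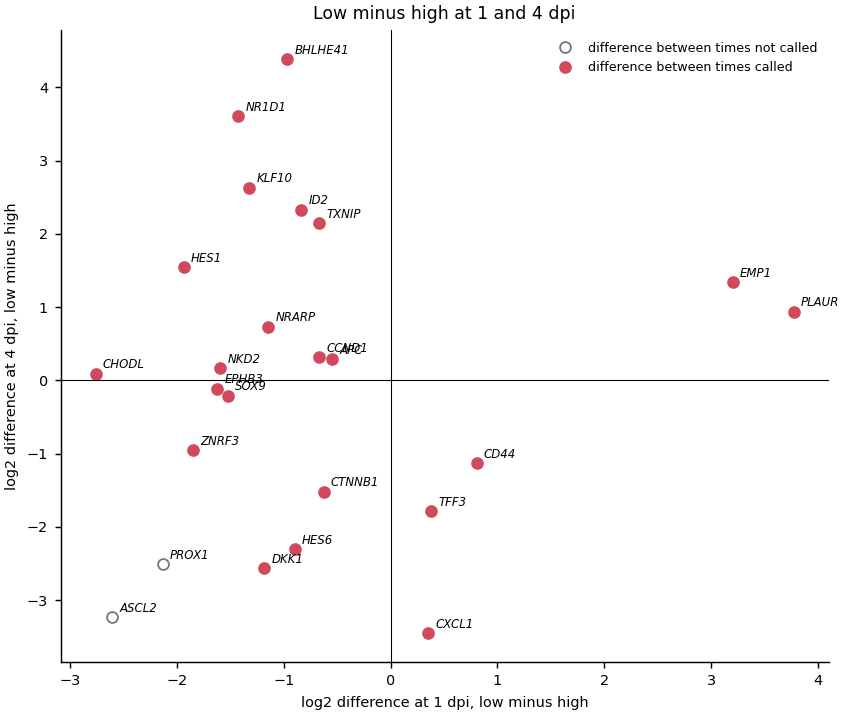
Log2 difference, low minus high, at 1 dpi (horizontal axis) and at 4 dpi (vertical axis) of the genes whose difference between times is reported and that were tested at both (filled where that difference was called). HES1, NR1D1, KLF10, BHLHE41, TXNIP and ID2 lie at the upper left, lower at 1 dpi and higher at 4 dpi, and ASCL2 and PROX1 at the lower left.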

How the data were processed

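Per the labels and the study's methods, the authors used SORT-seq (CEL-Seq2 chemistry), mapped reads to the human transcriptome with BWA (hg38 in the submitters' processing notes; version not given in the sources used here) and deposited counts, whole numbers of UMIs per gene and well, not normalized. The 3 plates of 1 dpi held between 4922188 and 7632953 UMIs, with 1.30% to 2.72% on ERCC spike-ins, which were left out of every total. The author-supplied barcode list was not used.

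Cells, score and groups are as given with the results. UMIs were summed per plate and group, and the score genes were left out of the tables tested. Genes passed edgeR's filterByExpr and were tested with edgeR 4.0.16 (quasi-likelihood, TMM, plate as a block, two-sided, Benjamini-Hochberg over all genes, threshold 0.05), with DESeq2 1.42.0 as an alternative, in R 4.3.3. SEs are the log2 difference over the square root of F. Plates are the replicates (3 against 3 sums, paired by plate since the same plate holds both groups). The interaction used all 5 plates. The procedure was tested on simulated counts.

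The members and the 33 gene lists were chosen with earlier results of these data known. Named genes are the 12 largest called differences each way with at least 60 UMIs, one sign in all plates and no overlap, the called members of the Wnt and Notch effector lists, the highest and lowest member of each other list, 11 genes discussed in the paper, and the 5 smallest interaction p-values. Interactions are reported for the last 2 sets and for called ones among the first 2. A few of the named genes are not reported here. Promoters (250 bases before each start) came from a RefSeq table of GRCh38.p14, in which NOTUM, NKD1, AXIN2, ASCL2, LGR5, ZNRF3 and PROX1 had no entry.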

Additional observations from a re-analysis of the deposited data

Results flagged for a closer look

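Differences between low and high cells that themselves differed between 4 and 1 dpi are given here as the interaction in log2 units, 4 dpi minus 1 dpi, at an adjusted p under 0.05 in edgeR's quasi-likelihood test. Groups of 3 and 2 plates were too small to look for single plates standing apart. In all, 3508 of 10497 genes differed in this way, among them 15 of 15 mitochondrially encoded genes and 73 of 76 ribosomal protein genes, all below 0.

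Values above 0 were found for NR1D1 (5.05), BHLHE41 (5.38), KLF10 (3.98), ID2 (3.19) and TXNIP (2.83), and among Notch effectors for HES1 (3.50), NRARP (1.90) and HEY2 (5.96). HEY2 is a low count at both times. Among Wnt genes they were found for NKD2 (1.77), EPHB3 (1.53), SOX9 (1.33), CCND1 (1.01), ZNRF3 (0.91) and APC (0.86), and among the largest falls of 1 dpi for KCNJ2 (3.47), CYFIP2 (2.89) and CHODL (2.87).

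Values below 0 were found for PLAU (-6.35), PLAUR (-2.82) and EMP1 (-1.88), which were all higher in low cells at 1 dpi, for CXCL1 (-3.77) and TFF3 (-2.15), and for CD44 (-1.92), HES6 (-1.38), DKK1 (-1.37) and CTNNB1 (-0.87). At 4 dpi PLAU was at 3.35 and 1.37 CPM in low and 9.69 and 0.92 CPM in high cells. Leaving out 1 plate ended some of these calls. Those of PLAU, EMP1, NRARP and CXCL1 were lost without library 10, those of PLAUR and CTNNB1 without library 11, and that of KCNJ2 without library 8 or 10. Those of DKK1, EPHB3 and ZNRF3 were lost without library 6, 10 or 11, that of APC without any of these or library 8, and that of CYFIP2 without library 7, 10 or 11. Without TMM the calls of CTNNB1 and DKK1 were lost as well. With cells ranked separately by mitochondrial share, those of APC, CD44, CYFIP2, DKK1 and HES6 were lost.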

How the results depend on the processing

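The left-out score genes kept their direction and call under each alternative run, APCDD1 between -3.62 and -2.61, NOTUM between -2.29 and -1.66, NKD1 between -2.48 and -1.90 and AXIN2 between -1.93 and -1.43. Genes called higher and lower at 1 dpi (1132 and 736) numbered 350 and 189 with cells thinned to 5000 UMIs, 638 and 228 with DESeq2, and 558 and 2359 without TMM. With 1 plate left out they ranged from 598 to 1182 and from 297 to 813, the lowest both without library 6. Without the plate block, which pairs low and high cells of the same plate, 1165 and 783 were called, and the calls of SLC7A5 and RPS9 were lost (adjusted p = 0.0648 and 0.0508) while NUMBL gained one (0.0294). Interactions above and below 0 (1744 and 1764) numbered 493 and 550 thinned, 898 and 874 with cells ranked separately by mitochondrial share, 956 and 982 with DESeq2, and 3193 and 865 without TMM. With 1 plate left out they ranged from 1088 to 1720 and from 1102 to 1656, the lowest both without library 11. The settings without TMM, by mitochondrial share and per UMI off mitochondrial and ribosomal genes were chosen after seeing the data. For 1 dpi, values of named genes kept direction and side of the threshold in 1697 cases, lost the call in 98, gained one in 29 and turned in 17. With a plate left out the same numbers were 274, 34, 6 and 3. The causes were not tested.

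The values that turned belonged to genes that were not called, or to CXCL2. CXCL1 came to -0.32 with the bottom 33.3% as low cells, -1.08 and -0.86 with cells ranked separately by depth or cell cycle share, and -0.997, -0.54 and -0.69 with APCDD1, NKD1 or AXIN2 left out of the score. With a plate left out it ranged from -0.62 to 1.58. KLK6 came to -0.013 by depth, -0.25 with a mitochondrial maximum of 15%, -0.091 off mitochondrial and ribosomal genes, -0.081 by mitochondrial share, -0.18 without TMM and -0.061 without AXIN2. CXCL2 came to -0.25 by depth and -0.057 without APCDD1 in the score. BTG2 came to 0.28 thinned and ranged from -1.80 to 0.0036 over plates left out, TFF3 to -0.15 thinned, and BRIP1 to -0.0084 without TMM, with a range of -0.15 to 0.82. Among interactions, HEYL came to -0.024 with the bottom 33.3% as low cells and -0.92 by mitochondrial share, ASCL2 to 0.47 by mitochondrial share, and PROX1 to 0.15 without TMM. With a plate left out HEYL ranged from -3.04 to 0.88 and HES5 from -1.70 to 3.36.

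Depth limited the low cells, whose sums held 1314187, 1012846 and 726464 UMIs, so genes of a few UMIs, such as EFNA4, CYFIP2 and HEY2, carry wide errors. Intervals cover counting error only.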
